A study of Mus musculus with 21 samples.

Results

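The chemokine ligands and receptors measured in the colon of germ-free (GF) mice are described here. Members were all non-control probes whose gene symbol in the array files starts with Ccl, Cxcl, Ccr or Cxcr followed by a digit, or is Cx3cl1, Cx3cr1, Xcl1 or Xcr1, and each gene was read from its brightest probe of the day. This gave 55 genes of 36693 (76 probes of 56605) on the array design used before colitis, and 54 genes of 31983 (71 probes of 55681) on the design used during colitis, which differ by Ccl21a alone. All animals were male germ-free C57BL/6J mice, and total RNA of the colon was hybridized to single-color Agilent arrays, 1 sample per array. At day 0, before dextran sodium sulfate (DSS, a detergent-like polysaccharide that injures the colon epithelium when drunk), there were 7 arrays labelled GF Card9-/- and 6 labelled GF WT. At day 7, after 7 days of 2% DSS in the drinking water, there were 4 arrays labelled GF Card9-/- (replicates 2, 2.1, 4 and 6) and 4 labelled GF WT (replicates 1, 4, 5 and 6). Card9-/- stands for a constitutive deletion of Card9, an adaptor of myeloid cells, and the controls are GF WT mice. The days lie on different designs, so a level at day 7 was never set against a level at day 0. The brightest probe also differed between the days for some genes, among them Cxcl1, Cxcl9, Ccl11, Ccl12, Ccl20, Ccl24 and Ccl28.

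Chemokines are small secreted proteins that form gradients along which leukocytes migrate. Each binds 1 or several receptors of the seven-transmembrane, G protein-coupled class on the migrating cell, and the CC, CXC, CX3C and XC families are named for the spacing of their first cysteines. In the gut, some are made at a steady level by epithelium and stroma and place lymphocytes in the mucosa and in lymphoid follicles. Others are induced in injury and infection, often through NF-kB, and draw neutrophils and monocytes. CARD9 relays signals from C-type lectin receptors to NF-kB in myeloid cells.

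The labels were checked first. At day 0 the brighter of 2 Card9 probes (A_66_P128849) read 8.71 to 9.24 (normalized log2 intensity) in the arrays labelled GF Card9-/- and 2.30 to 2.33 in those labelled GF WT, a difference of 6.58 ± 0.08 (SE, limma adjusted p = 2.92e-13). At day 7 a different probe, the Card9 probe of that design (A_55_P1986722), read 7.93 to 8.57 in the arrays labelled GF Card9-/-, 7.85 in GF WT replicate 1 and 2.38 to 2.41 in the other 3 arrays labelled GF WT. The signal is thus higher where the label says that the gene was deleted, the positions of these probes against the deleted part are not given in the sources used here, and every direction below is that of the labels. Whether the labels were exchanged, or GF WT replicate 1 of day 7 misassigned, cannot be told from these data. Exchanged labels would turn every direction. All 9 colonocyte markers were well above background on every array of both days. Pancreas markers stood apart in GF Card9-/- replicate 7 at day 0 (mean of the 10 markers 17.49, against 5.33 to 6.74 in the other 12 arrays) and in GF Card9-/- replicates 2.1 and 6 at day 7 (11.65 and 15.59, against 4.86 to 6.70), small intestine markers were highest in GF WT replicate 6 at day 0, and adipocyte markers were lowest in GF Card9-/- replicate 5 at day 0 (5.36, against 9.61 to 13.09). The tissue was whole colon, in which fewer cells of a type and less RNA per cell cannot be told apart. Nothing in the labels says more about where samples of 1 group came from, so p-values measure the spread between these samples. GF Card9-/- replicates 2 and 2.1 may come from the same mouse, in which case every error and p-value of day 7 rests on 3 mice of that label.

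Well above background is the flag that the scanner software sets on a spot clearly brighter than its surroundings. At day 0, 37 of the 55 chemokine genes carried it on over 50% of the arrays, 27 of them on all 13, another 5 on fewer arrays and 13 on none. At day 7 the counts were 32 of 54, 22 on all 8, 8 on fewer and 14 on none. Over all genes of the designs, 59.1% at day 0 and 56.9% at day 7 carried it on over 50% of the arrays. The same 32 genes passed on both days. Ccl1, Ccr8, Ccl20 and Ccr9 passed at day 0 only, no gene passed at day 7 only, and 18 passed at neither day. Ligands passed more often than receptors did, with 27 of 36 ligands and 10 of 19 receptors at day 0, and 24 of 35 and 8 of 19 at day 7, a difference that was not tested.

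Neutrophil chemokines were mostly not well above background in GF colon. Cxcl1, Cxcl2, Cxcl3 and Cxcl5, ligands of CXCR2 that draw neutrophils out of the blood, the lung chemokine gene Cxcl15 and the receptor genes Cxcr1 and Cxcr2 numbered 7, and 0 of them passed 50% of the arrays on either day. At day 0, Cxcl1 was well above background on 5 of 13 arrays, Cxcl2 on 2 (GF Card9-/- replicate 3 at 5.33 and GF WT replicate 2 at 4.93, with 2.33 to 2.39 elsewhere) and Cxcr2 on 1. At day 7 only Cxcl1 was, by a probe other than that of day 0, on 1 of 8 arrays, GF Card9-/- replicate 4. Of the 10 neutrophil markers, 3 carried the flag on more than 50% of arrays at day 0 and 4 at day 7. Csf3r, the receptor of the granulocyte growth factor, and Camp, an antimicrobial peptide gene, were so on every array of both days, and Il1b on 9 of 13 and 7 of 8. S100a9 and S100a8, the genes of calprotectin, were so on 5 and 1 of 13 arrays at day 0 and on 5 and 1 of 8 at day 7, and the granule genes Ltf and Ngp on none. A probe not well above background gives only a bound, so these data do not show that the transcripts were absent.

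The promoters of 3 of these ligand genes are shown because they hold, in front of genes that most arrays did not have well above background, the NF-kB motif through which such chemokines are known to be induced. The motif searched was GGGNNNTTCC on both strands within the 250 bases before the start of the gene in RefSeq (GRCm38.p6), and overlapping matches were joined. It was found in 9 of the 40 chemokine genes with a promoter entry (22.5%) and in 5.31% of all 27025 genes. A match is a description of letters only. The stretches are printed on the strand of the gene with the matches in capitals, those of Cxcl1 from chr5:90891146-90891194, of Cxcl2 from chr5:90903792-90903840 and of Cxcl3 from chr5:90786018-90786070 (all plus strand). That of Cxcl10, a ligand well above background on every array, is given beside them, from chr5:92348974-92349058 on the minus strand.
Cxcl1: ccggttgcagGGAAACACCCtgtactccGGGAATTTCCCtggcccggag
Cxcl2: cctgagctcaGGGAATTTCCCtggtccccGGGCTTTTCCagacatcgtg
Cxcl3: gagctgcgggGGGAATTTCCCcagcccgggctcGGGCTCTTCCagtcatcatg
Cxcl10: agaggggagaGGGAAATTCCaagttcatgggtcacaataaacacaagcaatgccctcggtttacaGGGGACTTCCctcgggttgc
The matches not printed were in Ccl1, Ccl9, Ccl20, Ccr3 and Ccr6, of which Ccl9 and Ccr6 were well above background on every array. Cxcl5 was not among the genes with a match. The matches thus lie alike in genes that most arrays did not have well above background and in genes that every array did.

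Monocyte and macrophage chemokines were mostly measurable. Of the 15 genes, 11 passed at each day: the ligand genes Ccl2, Ccl4, Ccl5, Ccl6, Ccl7, Ccl8, Ccl9, Ccl12 and Cx3cl1 and the receptor genes Ccr2 and Cx3cr1. Ccl5, Ccl6, Ccl8, Ccl9, Cx3cl1 and Cx3cr1 were well above background on all 13 arrays at day 0 and on all 8 at day 7. CX3CL1 is the membrane-bound ligand of CX3CR1, the receptor of resident intestinal macrophages, and CCL2 and CCL7 draw CCR2-bearing monocytes. Ccl3, Ccr1 and Ccr1l1 were among those that passed at neither day.

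Among genes tied to eosinophils, mast cells and type 2 T cells, Ccl11 and Ccl17 were well above background on all 13 arrays at day 0, as was Ccr8, and Ccl24 on 12. CCL11 and CCL24 are eotaxins, which draw eosinophils through CCR3. Ccl1 was read on 9 of 13 arrays, and Ccl22, Ccl26 and Ccr4 on none. At day 7 Ccl17 was read on all 8 arrays, Ccl11 on 7 and Ccl24 on 6. Ccr3 itself was read on 3 of 13 arrays and on 0 of 8.

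Genes tied to effector T cells, NK cells and cross-presenting dendritic cells passed in 7 of 8 cases at each day, the exception being Xcr1, which was well above background on no array. Cxcl10, Cxcl16, Cxcr3 and Cxcr6 were well above background on every array of both days, although the Cxcr6 value of GF WT replicate 6 at day 0 was left out as an outlier spot. Cxcl11 also was, but its brightest probe is not specific by its letters. Runs of 20 letters of it recur in the probes of 6 other genes on the day 0 design (Astn1, Elk1, Glrx2, Gm10856, Med16 and Ndor1), all 6 well above background on every array, and in those of 5 at day 7. It was the only one of the 55 brightest probes at day 0, and of the 54 at day 7, with such sharing. Both Cxcl11 probes are shown, with the 20 letters found in the most other probes in capitals. The first lies at chr5:92788567-92788626 and the second at chr5:92788640-92788699 (NCBI37, minus strand), and 30 of the 60 bases of each are printed.
Cxcl11 probe A_55_P2160387, bases 10 to 39: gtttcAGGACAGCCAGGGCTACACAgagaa
Cxcl11 probe A_55_P2044413, bases 1 to 30: tatacaccttaatttcagcacttgaaaggc
The first probe read 18 to 18.29 at day 0 and 17.17 to 17.64 at day 7, and the second, which shares no such run, was well above background on all arrays too, at 11.99 to 12.85 and 10.94 to 11.75. The letters of the first probe resemble an interspersed repeat of the mouse genome, and its value is not taken here as a level of Cxcl11. As the brightest probe it still enters the counts of genes and of differences. Its difference, GF Card9-/- minus GF WT by label, was -0.02 at day 0 and 0.22 at day 7, and that of the second probe 0.01 and 0.14.

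Genes that place lymphocytes and dendritic cells in lymphoid tissue all passed, 7 of 7 at day 0 and 6 of 6 at day 7. CXCL13 draws CXCR5-bearing B cells into follicles, CCL19 and CCL21 draw CCR7-bearing T cells and dendritic cells, and CXCL12 retains cells through CXCR4. Cxcl12, Cxcl13, Ccr7 and Cxcr5 were read on every array of both days. Ccl19 was read on 8 of 13 and 7 of 8 arrays. Ccl19 and Ccl21a have near-identical copies in the mouse genome, so signal there cannot be given to 1 copy.

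Genes tied to homing to the epithelium and mucosa passed in 6 of 7 cases at day 0 and in 4 of 7 at day 7. CCL25 and its receptor CCR9 guide lymphocytes to the small intestine, CCL28 and CCR10 guide plasma cells to the colon and other mucosae, and CCL20 and CCR6 bring cells to follicle-associated epithelium. Ccl25, Ccl27a (which also has near-identical copies), Ccl28 and Ccr6 were read on every array of both days, and Ccr10 on 6 of 13 and 2 of 8. Ccl20 was read on all 13 arrays at day 0 and on none of 8 at day 7, by different probes. The day 0 probe lies at chr1:83115500-83115559 and the day 7 probe at chr1:83115682-83115741 (NCBI37, plus strand). The first 30 of 60 bases of each are printed to show how they differ.
Ccl20 probe of day 0, A_51_P408595: tagatctgaattttctatgtttagctattt
Ccl20 probe of day 7, A_55_P2175885: ttttcttataaaacagaaaagaattataag
A or T makes up 65% of the day 0 probe and 83.3% of the day 7 probe, which read 2.29 or 2.30 on all 8 arrays, without the spread that the day 0 probe had (6.03 to 9.57). The probe and the day cannot be told apart for Ccl20. Of the remaining ligand genes, Cxcl14 was read on every array of both days and Cxcl17 on none.

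At day 0 the arrays labelled GF Card9-/- and GF WT did not differ in any chemokine gene past the threshold. By limma with Benjamini-Hochberg adjustment over the 47410 probes tested, 0 of the 48 chemokine genes tested were called, where 12 probes in all were (0.0253%). At an unadjusted p under 0.05 the count was 0 of 48, where 6.03% of all genes passed, and in 0 of the 48 did the genotypes not overlap, where 0.514% of all genes did so. The difference was above 0 in 21 and below 0 in 27, with a median of -0.03 on the log2 scale, against 56.1% above 0 and a median of 0.01 over all 30720 genes tested. Among the 37 genes well above background, 15 were above 0 and 22 below.

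Among chemokine genes well above background, the 5 largest differences at day 0 were in Cxcl10, Cxcl12, Cx3cr1, Cxcl9 and Ccl5, each with an interval that includes 0. Cxcl10, a ligand of CXCR3 on effector T cells, had a log2 intensity of 7.89 to 11.35 (median 9.26) in the arrays labelled GF Card9-/- and of 6.36 to 9.29 (median 8.59) in those labelled GF WT. The difference was 0.94 ± 0.59 (SE, 95% interval -0.35 to 2.23, limma adjusted p = 0.912), and it was 0.18 among the 6 arrays of one scan session and 1.54 among the 7 of the other. It was 0.54 without GF WT replicate 6, 0.60 without GF Card9-/- replicate 5 and 0.03 without the slide of GF WT replicate 6. Cxcl9, a ligand of the same receptor, was 4.05 to 7.38 (median 5.08) against 3.51 to 6.14 (median 4.96), a difference of 0.53 ± 0.57, which was -0.22 and 1.06 within the sessions and 0.21 without GF Card9-/- replicate 6. The 2 CXCR3 ligands thus differed in size, and Cxcl9 in direction, between scan sessions. Cxcl12 was 8.14 to 11.56 (median 10.66) against 8.91 to 12.13 (median 11.61), a difference of -0.84 ± 0.66 (-2.27 to 0.60), which was -0.48 without GF Card9-/- replicate 5 and -1.27 without GF WT replicate 5. Cx3cr1 was 7.77 to 10.20 (median 9.35) against 7.33 to 10.90 (median 10.54), a difference of -0.72 ± 0.66, which was -1.20 without GF WT replicate 5. Both were low in GF Card9-/- replicates 5 and 7 and GF WT replicate 5, the arrays with the lowest macrophage markers. Ccl5, which draws T cells and monocytes, was 9.71 to 12.49 (median 10.51) against 9.33 to 10.80 (median 10.11), a difference of 0.52 ± 0.42, with the highest value in GF Card9-/- replicate 6. It was 0.21 without that array and 0.05 without the slide of GF WT replicate 6.

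In the remaining named genes the values of the genotypes at day 0 overlapped. The monocyte ligand gene Ccl2 was 4.77 to 7.52 (median 7.22) in the arrays labelled GF Card9-/- and 5.55 to 7.87 (median 7.03) in those labelled GF WT, and its receptor gene Ccr2 was 4.60 to 5.87 (median 5.41) and 2.52 to 6.26 (median 5.69). The eotaxin gene Ccl11 was 6.27 to 10.29 (median 8.83) and 6.63 to 10.09 (median 9.38). Differences were -0.13 ± 0.51, 0.10 ± 0.52 and -0.41 ± 0.69, and that of Ccl11 ran from -0.88 without GF WT replicate 5 to -0.03 without GF Card9-/- replicate 5. For the lymphoid tissue genes, Cxcl13 was 7.21 to 9.55 (median 8.51) and 7.30 to 9.99 (median 8.62), Ccl21a was 12.38 to 13.96 (median 13.08) and 12.09 to 13.68 (median 13.24), and Ccr7 was 6.78 to 11.11 (median 7.92) and 5.53 to 10.03 (median 7.85). Differences were -0.28 ± 0.47, 0.04 ± 0.32 and 0.21 ± 0.80, and that of Cxcl13 was -0.02 without GF WT replicate 2 and -0.86 without the slide of GF WT replicate 6. For the epithelial ligand genes, Ccl20 was 6.03 to 9.41 (median 7.60) and 6.56 to 9.57 (median 7.83), Ccl25 was 9.48 to 10.24 (median 10.02) and 9.37 to 11.71 (median 9.84), and Ccl28 was 11.20 to 11.84 (median 11.41) and 10.87 to 11.88 (median 11.47). Differences were -0.45 ± 0.61, -0.20 ± 0.33 and 0.03 ± 0.16, and that of Ccl20 was -0.12 without GF WT replicate 2, -0.77 without GF Card9-/- replicate 5 and -1.29 without the slide of GF WT replicate 6. Ccl28 had the narrowest interval of these, -0.32 to 0.37. The neutrophil ligand gene Cxcl1 was 3.38 to 5.14 (median 4.27) and 3.51 to 5.44 (median 4.42), and Cxcl5 was 2.48 to 4.86 (median 3.08) and 2.50 to 3.60 (median 2.86). The receptor gene Cxcr2, which did not pass the filter for the test, was 2.25 to 6.05 (median 2.28) and 2.24 to 3.63 (median 2.26). For these 3 genes most arrays gave only a bound.

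GF WT replicate 6, whose small intestine markers were the highest of the 13 arrays (mean of 11 markers 9.54, against 6.88 to 8.72), also had the highest values of Ccl25, Ccr3 and Ccr10. Ccl25 was 11.71 there and 9.37 to 10.41 elsewhere, Ccr3 was 7.62 and 2.40 to 4.77, and Ccr10 was 8.33 and 2.62 to 6.75. Without that array the Ccl25 difference was 0.12 in place of -0.20. The part of other tissue in these values was not tested.

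**Figure D1:**
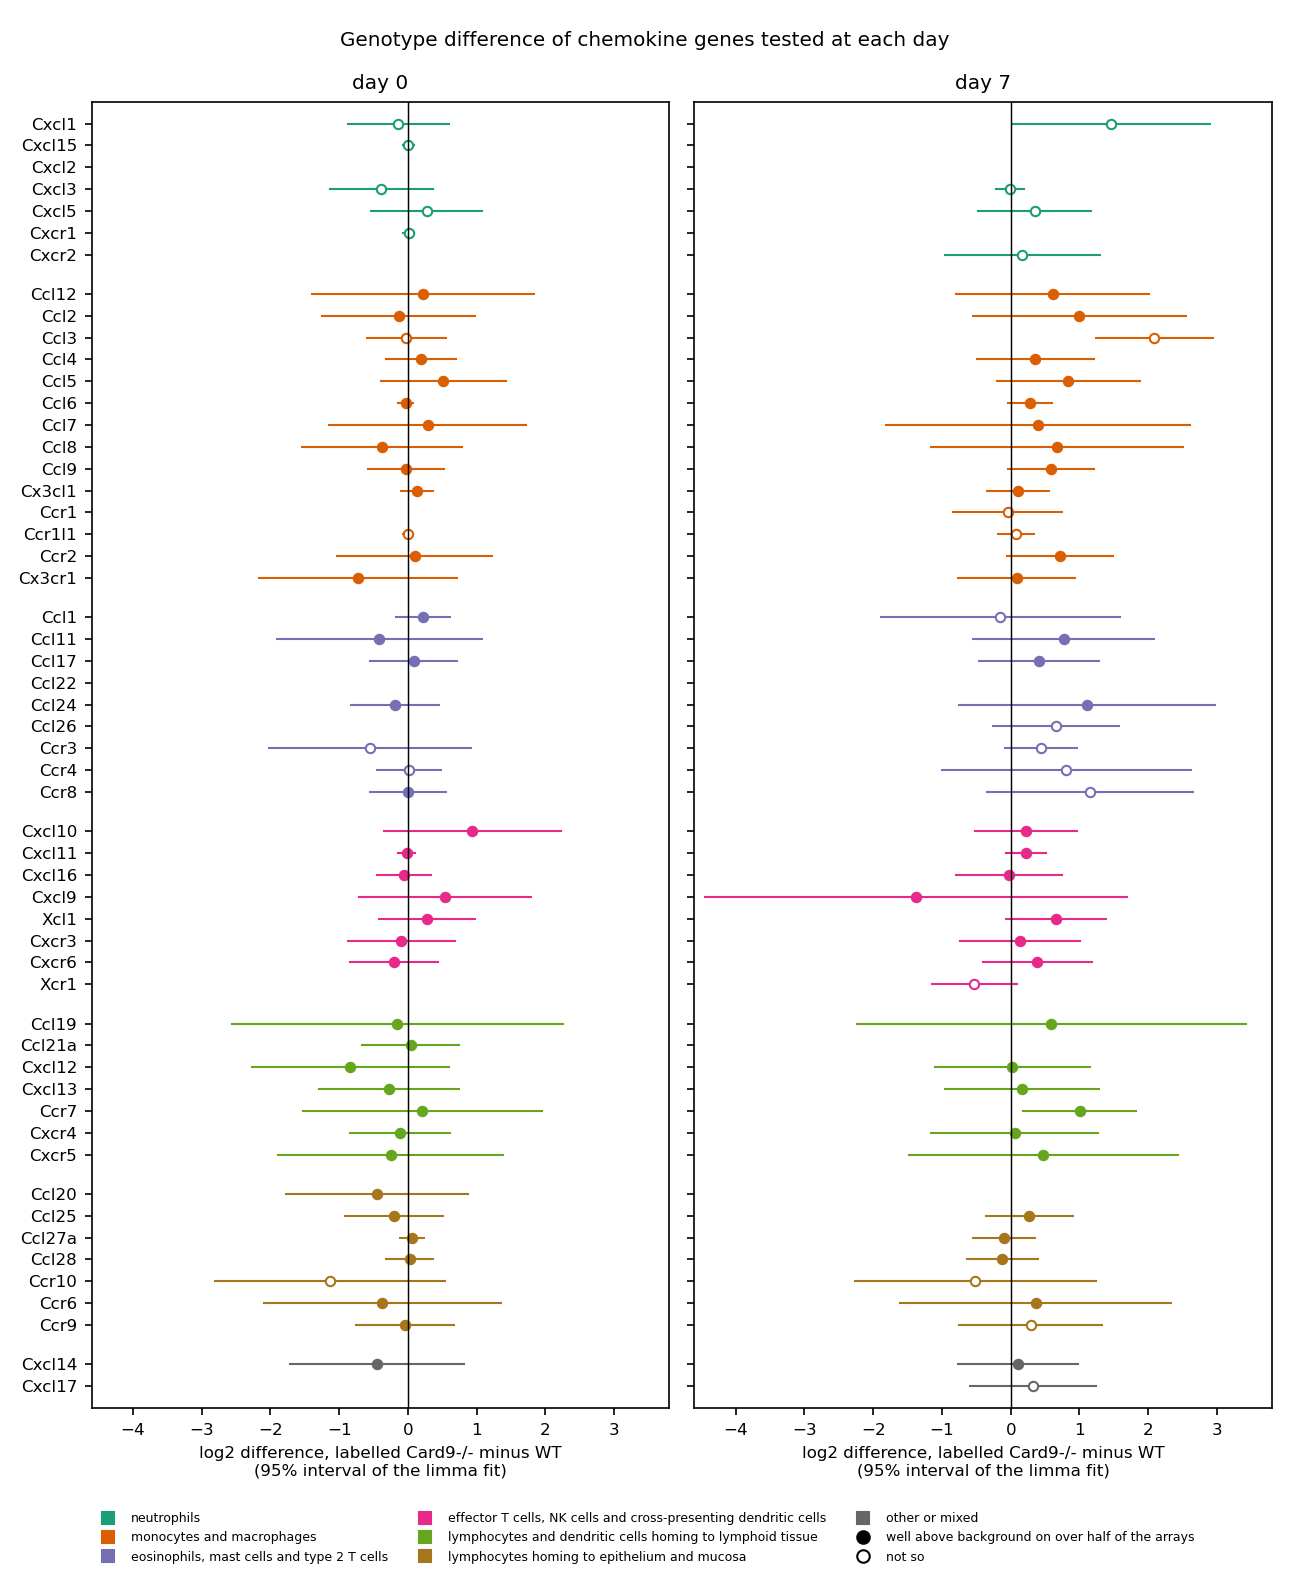
Difference in log2 intensity, arrays labelled GF Card9-/- minus arrays labelled GF WT, for chemokine genes tested (rows, grouped by the cells attracted) at day 0 and day 7, with 95% intervals as bars. At day 0 the points lie on both sides of 0, and at day 7 most lie above it, with wide intervals.

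At day 7 of DSS the chemokine genes lay on balance higher in the arrays labelled GF Card9-/-, and none passed the adjusted threshold. The difference was above 0 in 40 of the 49 genes tested and below 0 in 9, with a median of 0.35 on the log2 scale, where 51.3% of the 27299 genes tested were above 0 with a median of 0.01. Among the 32 chemokine genes well above background on over 50% of the arrays, 28 were above 0 with a median of 0.36, where 52% of all 18213 such genes were. By limma, 0 of the 49 were called, as were 0 of the 44643 probes tested (0%). At an unadjusted p under 0.05, 4 of 49 passed, Ccl3, Ccr7 and Cxcl1 among them (Ccl3 and Cxcl1 were well above background on 2 and 1 of 8 arrays), where 3.29% of all genes did, and in 2 of 49, Ccl3 among them, the genotypes did not overlap, where 2.08% did so. The count of 40 fell to 34 without GF Card9-/- replicate 2, without GF Card9-/- replicate 6 or without GF WT replicate 6, and it was 38 without GF Card9-/- replicates 2.1 and 6, whose pancreas markers stood apart. Within the 2 slides that held both genotypes, each with 1 array of each label, 32 and 28 of the 49 were above 0. Chemokine genes share cell types and arrays, so this count is a description of 8 arrays. Below, a difference at day 7 with the slide as a block rests on these 2 slides alone, as the mean of their 2 differences. With the replicate number as a block it rests on replicates 4 and 6 alone, the numbers found under both labels.

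By group, 14 of 15 monocyte and macrophage genes were above 0 (median 0.58), as were 7 of 8 genes tied to eosinophils, mast cells and type 2 T cells (median 0.71), 6 of 6 of the lymphoid tissue group (median 0.32), 5 of 8 of the effector T cell group (median 0.18), 3 of 4 neutrophil genes tested (median 0.26) and 3 of 6 of the epithelium and mucosa group (median 0.09). Of the 31 ligand genes tested 25 were above 0, and of the 18 receptor genes 15. Within the 2 slides with both genotypes the monocyte and macrophage group had 8 and 10 of 15 above 0, the eosinophil, mast cell and type 2 T cell group 4 and 7 of 8, and the lymphoid tissue group 6 and 2 of 6. Across the day 7 arrays the mean of the macrophage markers was 9.31 for the label GF Card9-/- and 9.30 for GF WT, while that of the eosinophil markers was 5.65 and 5.05, of the mast cell markers 6.08 and 5.28, and of the T cell markers 7.10 and 6.37. The adipocyte (10.68 and 9.52), small intestine (7.77 and 7.01), B cell (7.59 and 7.13), neutrophil (5.47 and 4.95), pancreas (9.80 and 4.99), lymphoid stroma and vessel (8.62 and 8.40), dendritic cell (8.09 and 7.96) and colonocyte markers (15.44 and 15.25) were also above on average, so the means of all 12 lists lay on the same side. The part of these cells and tissues in the counts was not tested. At day 0 the same groups had 8 of 14, 3 of 7, 2 of 7, 3 of 7, 3 of 5 and 2 of 7 above 0.

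Ccl3 was singled out after its values were seen, because its genotypes did not overlap. CCL3 is a product of activated macrophages and neutrophils and a ligand of CCR1. Ccl3 (probe at chr11:83461358-83461417, NCBI37, minus strand) read 4.12, 5.03, 5.76 and 4.31 in GF Card9-/- replicates 2, 2.1, 4 and 6, and 2.57, 2.66, 2.55 and 3.07 in GF WT replicates 1, 4, 5 and 6. All 4 arrays labelled GF Card9-/- were above all 4 labelled GF WT. The spot was well above background in GF Card9-/- replicates 2 and 4 only, so 6 of the 8 values were not well above background and the size is not settled. The difference of the log2 means ran with the handling of dim spots from 0.35 with normexp, 0.42 in the authors' log2 table and 0.65 with dim values raised to the floor to 2.09 as read.

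The first 30 bases of the Ccl3 probe, which shares no run of 20 letters with another probe, were as follows.
Ccl3: catgaactgacaaatgtacaatagatgctt
The means of the neutrophil markers and of the pancreas markers did not overlap between the labels either. The mean of the 10 neutrophil markers was 5.14 to 5.79 in the arrays labelled GF Card9-/- and 4.81 to 5.07 in those labelled GF WT, and that of the 10 pancreas markers was 5.25 to 15.59 against 4.86 to 5.15. S100a9 read 5.36, 6.04, 7.03 and 6.37 against 4.47, 4.53, 4.49 and 4.71, while Ltf, Mmp8, Mmp9 and Ngp were well above background on no array. Other neutrophil markers that most arrays had well above background overlapped. Il1b read 5.90 to 7.26 against 5.67 to 7.11, Csf3r 15.16 to 15.54 against 15.11 to 15.35, and Camp 6.41 to 7.06 against 6.05 to 6.70. The part of neutrophils, or of pancreas in the sample, in the Ccl3 values was not tested.

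**Figure D2:**
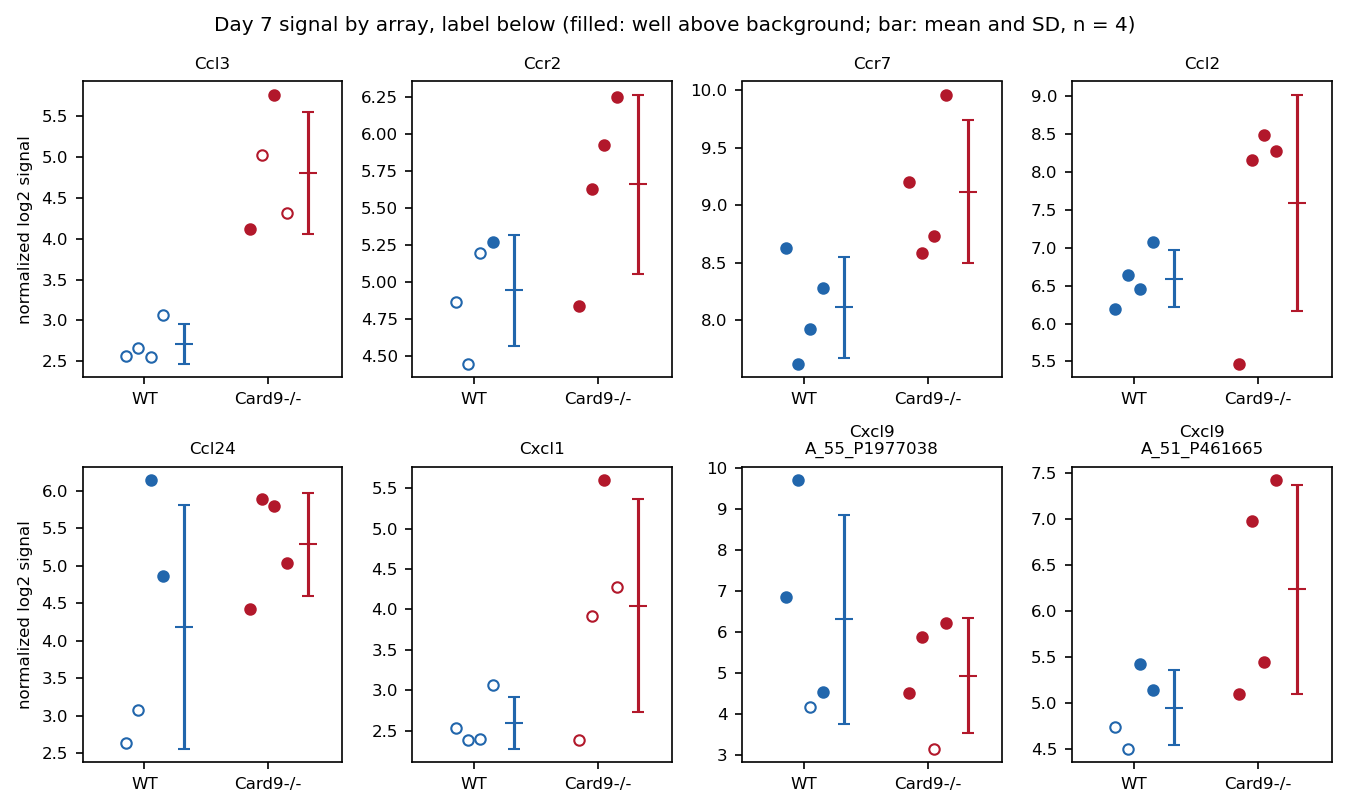
Normalized log2 intensity on each of the 8 arrays of day 7 (points, arrays labelled GF Card9-/- and GF WT), with the mean and SD of each label as bars (n = 4), for 7 chemokine genes, Cxcl9 by both probes. Filled points were well above background and open points were not. For Ccl3 the 4 arrays labelled GF Card9-/- read 4.12 to 5.76 and the 4 labelled GF WT 2.55 to 3.07.

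Ccr7, the receptor that takes T cells and dendritic cells into lymphoid tissue, had the smallest p among the genes well above background on every array. It read 9.20, 8.58, 8.73 and 9.96 in the arrays labelled GF Card9-/- and 8.63, 7.62, 7.92 and 8.28 in those labelled GF WT. GF WT replicate 1 lay above GF Card9-/- replicate 2.1, so the groups overlapped. The difference was 1.0 ± 0.35 (0.18 to 1.82), with an unadjusted p of 0.023 and a limma adjusted p of 0.913, and it was 0.91 and 0.96 within the 2 slides with both genotypes. T cell markers were also highest in GF Card9-/- replicates 6 and 2 (mean of 10 markers 8.07 and 7.47, against 6.22 to 6.63 elsewhere), the arrays with the 2 highest Ccr7 values. Without GF Card9-/- replicate 6 the difference was 0.72. The part of T cell content was not tested.

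Among monocyte chemokines, Ccl2 read 5.47, 8.15, 8.48 and 8.27 in the arrays labelled GF Card9-/- and 6.19, 6.64, 6.46 and 7.08 in those labelled GF WT. Replicate 2 was the lowest of all 8 arrays and the other 3 arrays labelled GF Card9-/- were the highest. The difference was 1.0 ± 0.67 (-0.56 to 2.55), and it was -1.60 and 1.51 within the 2 slides. It was -0.05 with the slide as a block, 1.51 with the replicate number as a block and 1.7 without GF Card9-/- replicate 2. Its receptor gene Ccr2 read 4.84, 5.63, 5.93 and 6.25 against 4.87, 4.45, 5.2 and 5.27, a difference of 0.71 ± 0.33 (-0.06 to 1.49), with the spot flagged as well above background on 4 of 4 and 1 of 4 arrays. It was 0.29 with normexp, 0.32 with the authors' log2 table, 0.37 with the slide as a block and 1.23 with the replicate number as a block. Ccl5 read 10.72, 9.97, 10.57 and 12.10 against 10.39, 9.65, 9.74 and 10.22, a difference of 0.84 ± 0.44 (-0.20 to 1.88), with the highest value again in the array with the highest T cell markers. It was 0.42 without that array, 0.41 with the slide as a block and 1.4 with the replicate number as a block. Cx3cr1 read 9.67, 8.91, 9.71 and 9.78 against 9.77, 9.44, 10.04 and 8.49, a difference of 0.09 ± 0.36, which was 0.33 with the slide as a block, 0.78 with the replicate number as a block, and -0.24 and 0.45 by other probes of the gene. Narrower intervals that also reached 0 were those of Ccl6 (0.28 ± 0.14) and Ccl9 (0.58 ± 0.27), macrophage ligands of CCR1.

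The eotaxin genes had wide intervals that included 0. Ccl24 read 4.43, 5.89, 5.79 and 5.04 in the arrays labelled GF Card9-/- and 2.64, 3.08, 6.14 and 4.87 in those labelled GF WT, a difference of 1.10 ± 0.80 (-0.76 to 2.97). GF WT replicate 5 had the highest value of all, and within the 2 slides the difference was -0.44 and 2.81. With normexp, the authors' log2 table and dim values raised it was 0.20, 0.24 and 0.52, and without GF WT replicate 1 or 5 it was 0.59 and 1.76. Ccl11 read 6.10, 7.47, 7.92 and 7.95 against 5.29, 6.94, 6.88 and 7.24, a difference of 0.77 ± 0.56. It was -0.31 with the slide as a block and 1.19 without GF Card9-/- replicate 2.

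The CXCR3 ligand gene Cxcl9 was read by 2 probes that differed in direction, each well above background on 6 of 8 arrays. The brightest probe read 4.51, 5.88, 3.15 and 6.23 in the arrays labelled GF Card9-/- and 6.85, 9.71, 4.18 and 4.53 in those labelled GF WT, a difference of -1.37 ± 1.31 (-4.45 to 1.70). By the other probe it was 1.28 ± 0.55, with an unadjusted p of 0.051. No direction is given for Cxcl9 at day 7. The probes lie at chr5:92752796-92752855 and chr5:92752191-92752250 (NCBI37, minus strand), and their first 30 bases, with no letters shared with another probe by the rule above, are given in that order.
Cxcl9 probe A_55_P1977038: aagtcgtcgtcgttcaaggaagactacata
Cxcl9 probe A_51_P461665: atgggatttcattattaacttgatcccatc
Cxcl10, by contrast, read 9.10, 8.81, 8.97 and 9.24 against 9.79, 8.45, 8.50 and 8.49. GF WT replicate 1 was the highest array and the other 3 labelled GF WT were the lowest, and the difference was 0.22 ± 0.32 (-0.52 to 0.96). It was 0.55 without GF WT replicate 1, 0.48 with the slide as a block and 0.64 with the replicate number as a block.

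The neutrophil ligand gene Cxcl1 read 2.39, 3.92, 5.60 and 4.28 in the arrays labelled GF Card9-/- and 2.54, 2.38, 2.40 and 3.07 in those labelled GF WT. Only the 5.60 was well above background, so the size is not settled here either. The difference of the log2 means was 0.27 with normexp, 0.29 in the authors' log2 table, 0.33 with dim values raised and 1.45 as read. It was 0.43 with the slide as a block and 2.22 with the replicate number as a block. Cxcl5 read 3.63, 3.19, 4.38 and 3.92 against 3.07, 3.54, 4.20 and 2.93, and Cxcr2 read 2.66, 2.72, 3.77 and 4.30 against 2.72, 2.68, 4.14 and 3.23. Neither was well above background on any array, so no fold is given.

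In the lymphoid tissue and epithelial groups the genotypes overlapped. Cxcl13, the follicle chemokine, read 10.52, 8.51, 9.47 and 9.69 in the arrays labelled GF Card9-/- and 10.19, 9.07, 9.57 and 8.72 in those labelled GF WT, a difference of 0.16 ± 0.48 (-0.96 to 1.28). It was 0.62 with the slide as a block and 0.69 with the replicate number as a block. Ccl25 read 9.73, 9.70, 9.55 and 9.55 against 10.06, 9.17, 8.72 and 9.49, a difference of 0.27 ± 0.27 (-0.36 to 0.90). Ccl28 read 10.48, 10.09, 10.19 and 10.10 against 10.93, 10.30, 9.96 and 10.17, a difference of -0.12 ± 0.22 (-0.64 to 0.39). These epithelial ligands therefore had intervals within 1 log2 unit of 0 on both sides.

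Whether the genotype difference itself differed between the days was tested in a joint limma fit of the 4 groups on the 23633 probes that both designs share and that were detected at both days. Of the 38 chemokine genes in it 0 passed the adjusted threshold, as did 0 of all probes (0%). At an unadjusted p under 0.05 the count was 3 of 38, where 7.14% of all probes passed. Ccl6, well above background on every array, was among them, with a day 7 difference that exceeded the day 0 difference by 0.31 ± 0.12 (limma adjusted p = 0.582). Ccl3 was too, but it was well above background on no array of day 0, where it read 2.37 to 3.72 in the arrays labelled GF Card9-/- and 2.39 to 3.38 in those labelled GF WT, so no size is given. The value was above 0 in 34 of the 38 genes, where 51.4% of all probes were above 0.

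Chemokine genes also differed among the arrays of a label, and these values were set against the cell type markers of the same arrays. For each chemokine gene well above background, its values over the arrays of a day were set against the mean of each of 12 marker lists, which made 444 relations at day 0 and 384 at day 7, with p-values from permutation of the arrays (100000 draws at day 0, all 40320 pairings at day 7) adjusted within a day. An adjusted p of 0.000342 at day 0 comes from draws whose smallest possible p is 1e-05. A relation is counted where Pearson's r and Spearman's rho both passed 0.05 after adjustment. Not all of the 9 B cell markers moved alike. At day 0 Pax5 read 5.35 to 6.45 and Cd22 7.96 to 8.97, where Cd79b read 7.35 to 12.68. At day 7 Pax5 was highest (8.70) in GF Card9-/- replicate 4, where Cd79b read 8.72. In GF Card9-/- replicate 2, where Cd79b was highest (11.78), Pax5 read 6.11. At day 0 the B cell list (9 markers, among them Ms4a1, Cd79a and Cd79b) had 7 such genes of 37, the T cell list 7, the lymphoid stroma and vessel list 7, the macrophage list 10, the dendritic cell list 13, the colonocyte list 3, the neutrophil and small intestine lists 2 each, and the mast cell, eosinophil, adipocyte and pancreas lists 0. To set these counts against all genes well above background, the share of genes at least as strongly related as the weakest counted relation of day 0 (r of at least 0.678 and rho of at least 0.72 in size) was taken. It was 3.27% of 21763 genes for the B cell list, where 7 of 37 chemokine genes reached it, 1.11% for the T cell list (7 of 37), 7.33% for the lymphoid stroma and vessel list (8 of 37), 19.3% for the dendritic cell list (14 of 37), 1.12% for the colonocyte list (3 of 37), 1.89% for the neutrophil list (2 of 37), 2.23% for the small intestine list (2 of 37) and 25.9% for the macrophage list (10 of 37, or 27%). For the macrophage list the share of chemokine genes was thus near that of all genes. Both measures of a point come from the same array.

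With the B cell list at day 0, 5 chemokine genes had r over 0.9, where 0.331% of all genes did. Ccr6 had r = 0.970 (rho = 0.945, adjusted permutation p = 0.000342 and 0.000888, n = 13 arrays), Cxcr5 0.968 (rho 0.945), Cxcl13 0.948 (rho 0.962), Ccr9 0.947 (rho 0.929) and Ccr7 0.946 (rho 0.879), and Cxcr4 and Ccl20 followed at 0.881 and 0.768. CCR6, CXCR5, CCR7 and CXCR4 are receptors that B cells carry, and CXCL13 and CCL20 are made by stroma and epithelium of follicles. Without the 2 arrays farthest from the median, GF Card9-/- replicate 6 and GF WT replicate 2, r was 0.957 for Ccr6, 0.911 for Cxcr5, 0.985 for Cxcl13, 0.862 for Ccr9 and 0.865 for Ccr7. Within the 2 scan sessions it was 0.968 and 0.972 for Ccr6 and 0.978 and 0.945 for Cxcl13, and within the arrays labelled GF Card9-/- and GF WT it was 0.966 and 0.978 for Ccr6 and 0.920 and 0.993 for Cxcl13. B cell markers were highest in GF Card9-/- replicate 6 (9.18), GF WT replicate 2 (8.72) and GF WT replicate 4 (8.0), with 5.42 to 7.22 in the other 10 arrays, and Cxcr5 read 9.46, 8.78 and 7.66 in those 3 arrays and 5.04 to 6.93 in the rest. Arrays of both labels were thus high and low. The same 3 arrays were also highest in the T cell markers (9.77, 8.27 and 7.82) and the lymphoid stroma and vessel markers (8.56, 8.64 and 8.06). With these lists 2 and 3 chemokine genes had r over 0.9, where 0.147% and 0.584% of all genes did. The relations are therefore not shown to be particular to B cells.

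At day 7, 2 of 32 chemokine genes passed with the B cell list, where 0.0519% of all genes were as strongly related, Ccr6 (r = 0.967, rho = 0.976, adjusted exact permutation p = 0.0214 and 0.0381, n = 8 arrays) and Cxcl13 (r = 0.952, rho = 0.976). Without GF Card9-/- replicate 2 and GF WT replicate 1, the farthest arrays, r was 0.922 and 0.858. Cxcr5 had r = 0.971, but its rho of 0.905 did not pass after adjustment (exact permutation p = 0.187). Ccl19 passed with the lymphoid stroma and vessel list on both days, at r = 0.965 (n = 13) and 0.958 (n = 8), and no other list had a gene past the adjustment at day 7. Ccl5 and Ccr7 had r = 0.932 and 0.918 with the T cell list at day 7, and neither rho passed after adjustment. The first 30 bases of the probes of Cxcr5, Ccr6 and Cxcl13 are given because the relation rests on them. They lie at chr9:44320071-44320130 (Cxcr5, minus strand), chr17:8449933-8449992 (Ccr6, plus strand) and chr5:96389861-96389920 (Cxcl13, plus strand) on NCBI37.
Cxcr5: gggaaaccaatgctatagcttcagagactg
Ccr6: acacgagagcacaaagcaacattgccccaa
Cxcl13: gatttattgtcttgcattaaaaccagtaac
None of the 3 probes shares a run of 20 letters with a probe of another gene.

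**Figure D3:**
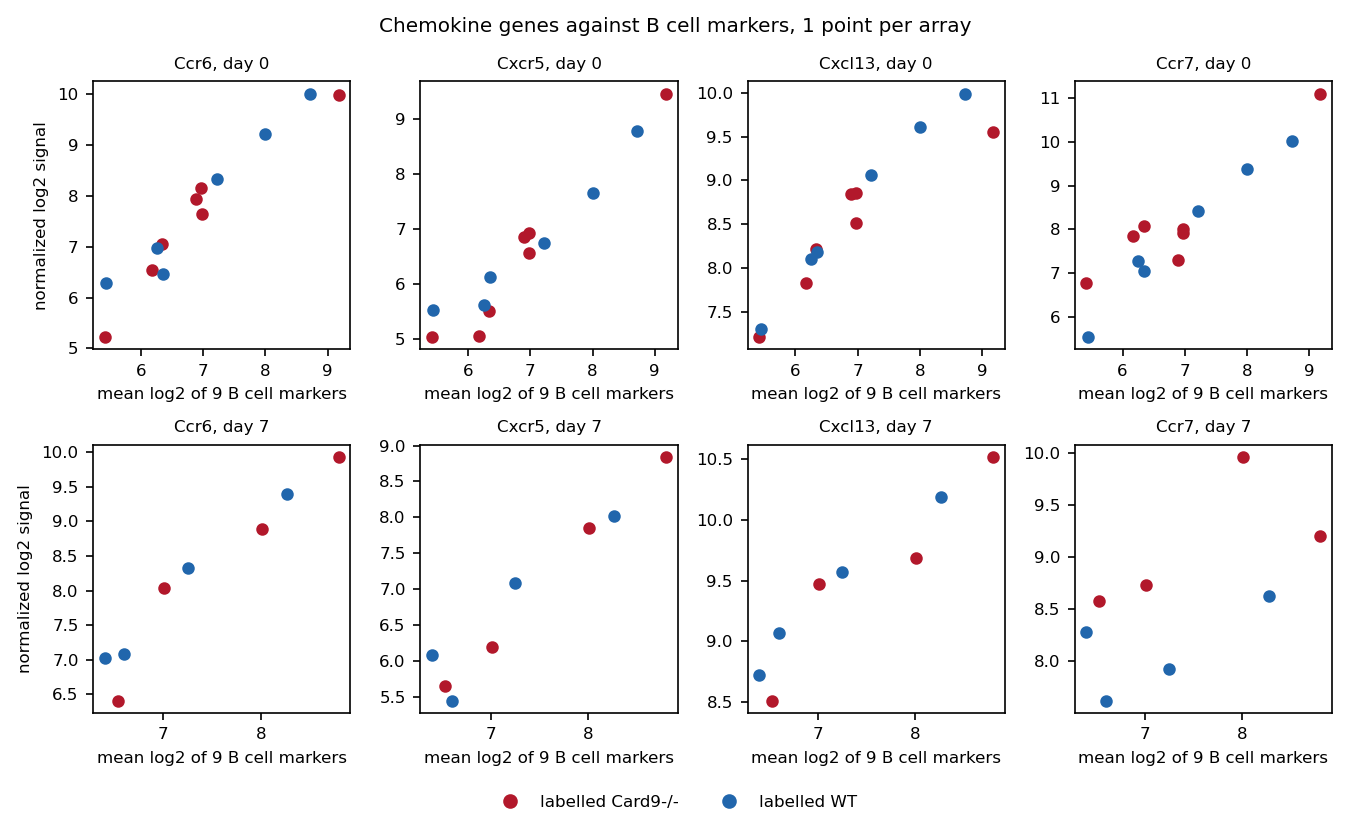
Normalized log2 intensity of chemokine genes (y axis) against the mean log2 intensity of the 9 B cell markers (x axis), 1 point per array, at day 0 (13 arrays) and day 7 (8 arrays), with the arrays labelled GF Card9-/- and GF WT in separate colors. For Ccr6, Cxcr5 and Cxcl13 the points of both labels rise together at both days (r = 0.970 for Ccr6 at day 0 and 0.967 at day 7), while Ccr7 at day 7 is scattered (r = 0.621).

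With the macrophage list at day 0 (10 markers, among them Csf1r, Cd68, Cd163 and Mrc1), 10 chemokine genes passed, a share near that of all genes as given above, and 4 of 37 had r over 0.9, where 2.8% of all genes did. Cxcl12 had r = 0.982 (rho = 0.978, adjusted permutation p = 0.000342 and 0.00074, n = 13), Cx3cr1 0.970 (rho 0.967), Ccl11 0.952 (rho 0.934), Cxcl14 0.937 (rho 0.951), Ccl2 0.894, Ccl8 0.854 and Ccl7 0.840. CXCL12, CCL11 and CXCL14 are largely stromal products, and CX3CR1 is carried by the macrophages themselves. Cx3cl1 ran the opposite way, at r = -0.921 (rho = -0.896). Without GF Card9-/- replicate 5 and GF WT replicate 5, the arrays lowest in macrophage markers (8.59 and 8.65), r was 0.972 for Cxcl12, 0.980 for Cx3cr1, 0.889 for Ccl11 and -0.837 for Cx3cl1. Within the arrays labelled GF Card9-/- and GF WT it was 0.994 and 0.991 for Cxcl12 and -0.870 and -0.955 for Cx3cl1. At day 7 no gene passed with this list, Cxcl12 having the largest r at 0.792 (rho = 0.810, adjusted exact permutation p = 0.291 and 0.279, n = 8).

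**Figure D4:**
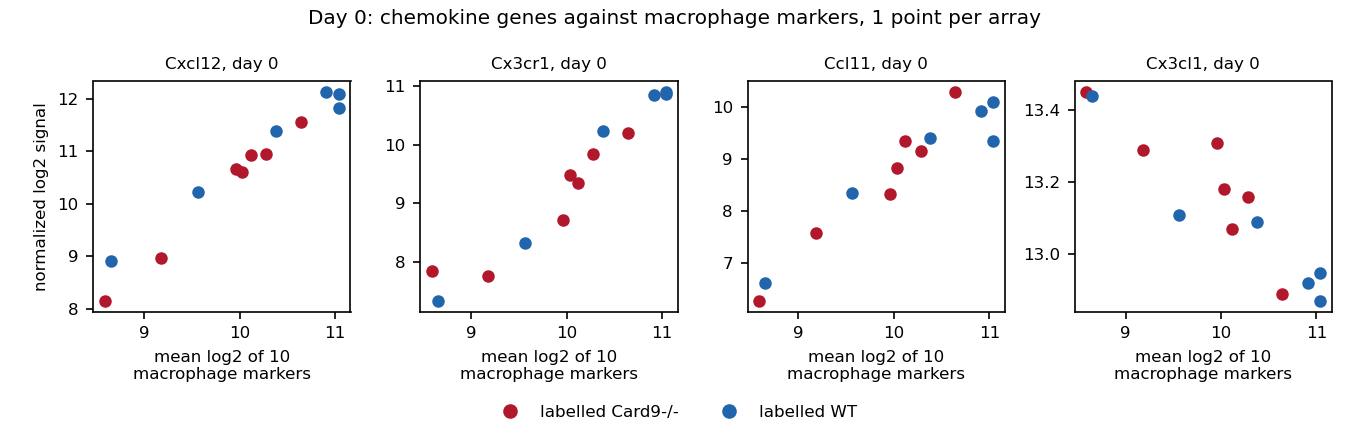
Normalized log2 intensity of chemokine genes at day 0 (y axis) against the mean log2 intensity of the 10 macrophage markers (x axis), 1 point per array (13 arrays), with the labels in separate colors. Cxcl12, Cx3cr1 and Ccl11 rise with the markers (r = 0.982, 0.970 and 0.952), and Cx3cl1 falls (r = -0.921).

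Other genes that act on or below chemokine receptors (18 in all: the platelet chemokines Pf4 and Ppbp, the scavenging receptors Ackr1 to Ackr4, Ccrl2, the chemerin pair Cmklr1 and Rarres2, and the signaling genes Gnai2, Arrb1, Arrb2, Adrbk1, Grk6, Rgs1, Pik3cg, Dock2 and Rac2) were split at day 7. Over 50% of the arrays had 17 of the 18 well above background at day 0 and 15 at day 7. By limma 0 passed the adjusted threshold and 0 an unadjusted p under 0.05 at either day. The difference was above 0 in 7 of 18 at day 0 (median -0.09) and in 9 of 18 at day 7 (median 0.03).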

How the data were processed

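Colon RNA of GF male mice was measured in 21 samples, 13 at day 0 and 8 at day 7 of 2% DSS. Per the labels and methods, the authors labelled RNA with Cy3, scanned the arrays and extracted spots with Feature Extraction 10.7.3.1. Spot intensity was deposited on a linear scale, before any normalization between arrays, and the deposited p-value of a spot tests it against its background and is also small for spots dimmer than it. The authors' deposited log2 table of each design was normalized between arrays with its centring unstated. It served as an alternative. Arrays of designs 074809 (day 0) and 028005 (day 7) were analyzed apart, and the methods name the latter.

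Processed signals were log2-transformed and quantile normalized within a day. Control spots and outlier flags were dropped and each probe was averaged over its spots, which left Cxcr6 without a value in GF WT replicate 6 at day 0. Probes with a deposited p-value under 0.05 on at least 60% of the arrays of 1 genotype were tested with limma 3.58.1 (R 4.3.3) and Benjamini-Hochberg adjustment at 0.05 over all probes. A gene was well above background on an array where at least 50% of the spots of its brightest probe were. The floor of an array was the lowest signal among its probes well above background (3.97 to 5.43 at day 0, 3.58 to 5.12 at day 7). No chemokine spot was saturated. Probe positions are those of the deposited NCBI37 annotation, and exon or UTR positions were not used here. All 55 symbols matched RefSeq, which gave the promoters (GRCm38.p6). The fit was tested on simulated data with known changes. Figures were drawn with Python 3.11.15 and matplotlib 3.10.9.

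The members, the groups by cells attracted and the marker lists were chosen with earlier results of these data known. Named with values of every array or their range were genes past the threshold, non-overlapping genes well above background on over 50% of the arrays of a genotype, the 5 largest differences of a day among genes well above background, and 15 fixed genes. GF Card9-/- replicates 2 and 2.1 were counted as 2 samples, although they may share a mouse. The number of arrays limits the precision. Alternatives were 75th percentile scaling, normexp (offset 50), the authors' table, other filters on dim probes, dim values raised to the floor, slide, scan session and replicate number as blocks, other probes and leaving out each array. Leaving out arrays that stood apart, the recount of genes above 0, the shares of all genes related to a marker list and all alternatives of Ccl3 were chosen after seeing the data. Some genes that enter the counts are not reported or drawn here.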

Additional observations from a re-analysis of the deposited data

Results flagged for a closer look

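Among the named genes, 68 sets of values of 1 gene in 1 group of arrays were tested for a single array far from the rest by Dixon's criterion, and 8 were found where chance gives about 3.4 (1 in 20).

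At day 0, Ccr2 was 2.52 in GF WT replicate 5, not well above background, with the nearest other array at 5.13. Ccr7 was 11.11 in GF Card9-/- replicate 6, next to 8.09, and Cxcr2 was 6.05 in the same array, next to 3.45. This array also had the highest B cell markers of day 0. Cxcr2 was 3.63 in GF WT replicate 2, next to 2.28, but not well above background. Cxcl10 was 6.36 in GF WT replicate 6, next to 8.27, the array in which small intestine markers were highest.

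At day 7, Ccl2 was 5.47 in GF Card9-/- replicate 2, next to 8.15 in replicate 2.1. Cx3cr1 was 8.91 in GF Card9-/- replicate 2.1, next to 9.67, and pancreas markers stood at 11.65 in that array. Cxcl10 was 9.79 in GF WT replicate 1, next to 8.50, and this was also the array labelled GF WT with Card9 signal. Whether these arrays' cell content plays a part was not tested.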

How the results depend on the processing

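The counts of chemokine genes past the threshold stayed at 0 at day 0, at day 7 and for the difference between days under every alternative run, and the smallest adjusted p of a named gene was 0.503 at day 0 and 0.810 at day 7, or 0.564 and 0.553 with 1 array left out. At day 7 the fits with slide or replicate number as a block rest on the few arrays that share one. Even without a block 0 of 44643 probes were called there. A count of 0 in those fits was thus nearly fixed in advance and adds little. The count well above background was 27 and 22 on every array, 42 and 40 on at least 1 array, and 37 and 32 to 33 with 1 array left out. The count above 0 at day 7 was 38 with 75th percentile scaling, 41 with normexp, 38 with the authors' table, 42 with dim values raised, and 34 to 43 with 1 array left out. Not all same-numbered arrays deviated together (r from -0.022 to 0.375 at day 0, 0.11 and 0.029 at day 7), so replicate numbers were not taken as pairing. With the replicate number as a block 0 genes were called in each comparison, and Ccl2 at day 0 turned to 0.02. Depth is limited by signal: the 18 genes well above background at neither day give bounds only.

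Directions of named genes turned in 17 of 182 values at day 0 and 10 of 146 at day 7, none of them past the threshold on either side, and the cause was not tested. Ccr2 at day 0 was -0.03 with 75th percentile scaling, -0.08 with normexp, -0.12 with the authors' table and -0.23 with dim values raised. Without the slide of GF WT replicate 6, Ccl21a was -0.17, Ccl25 0.03, Ccl28 -0.19, Ccr7 -0.70, Cxcl5 -0.24 and Cxcl9 -0.11. Without the 2 arrays that stood apart at day 0, Ccl21a was -0.03, Ccl25 0.10, Ccl28 -0.09 and Ccr7 -0.24. Other Ccl25 probes gave 0.01 and 0.03 at day 0 and -0.04 and -0.11 at day 7. At day 7, Cxcr2, which was well above background on no array and so has no direction, was -0.21 with 75th percentile scaling and -0.06 with the authors' table. With the slide as a block Ccl11 was -0.31, Ccl2 -0.05, Ccl28 0.05 and Cxcr2 -0.27. Other probes gave -0.24 for Cx3cr1 and 1.28 for Cxcl9. With 1 array left out, values at day 0 ran from -0.38 to 0.18 for Ccl2, -0.16 to 0.16 for Ccl21a, -0.35 to 0.12 for Ccl25, -0.09 to 0.12 for Ccl28, -0.44 to 0.31 for Ccr2, -0.29 to 0.62 for Ccr7 and -0.32 to 0.06 for Cxcl1, and at day 7 from -0.25 to 0.07 for Ccl28, -0.23 to 0.29 for Cx3cr1, -0.16 to 0.51 for Cxcl13 and -0.14 to 0.48 for Cxcr2.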
